A study of Mus musculus with 12 samples.

Results

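Skeletal muscle of C57Bl/6 mice after 42 days of high-fat feeding was compared with muscle of mice that stayed on chow. The samples were chosen by the diet and time in their labels, which gave 4 arrays for the 42-day diet and 4 for chow, 8 of the 12 arrays of the series. Every mouse ate chow, with 13% of its calories from fat, up to the age of 6 weeks. From then on the chow group kept that food, while the other group ate a diet with 46% of its calories from fat. They shared cages and fed freely. The arrays of mice fed the high-fat diet for 5 days took no part in the comparison. Sex, the muscle taken, a batch, the age at which chow mice were sampled and whether replicates came from separate animals are not given, so p-values here measure the spread between these arrays, which may be technical. The series is titled as a study of insulin resistance, and high-fat feeding of this strain is a common model of it.

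Each array carried 45037 probe sets besides its controls, and 18193 genes could be named. The values are log2 signals, on which a difference of 1 is a 2-fold difference. A gene was read by the brightest of its probe sets, and was said to rise or fall when limma's test over all probe sets gave an adjusted p under 0.05. In whole muscle, fewer cells of a type and less of an RNA in each cell cannot be told apart.

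Muscle burns fatty acids that it takes from blood. The membrane protein Cd36 helps them in, Fabp3 carries them through the cytosol, the carnitine shuttle moves them into mitochondria, and beta-oxidation removes acetyl units while the electron transfer flavoprotein passes the electrons to the respiratory chain. De novo lipogenesis runs the other way: citrate leaves the mitochondrion, is cleaved to acetyl-CoA, and is built into fatty acids with NADPH that comes in part from the pentose phosphate pathway. That pathway is most active in liver and in white and brown fat, where dietary fat is known to lower its enzymes.

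The label of the tissue was borne out by its markers. All 22 measured genes that define muscle fibres, among them the fast myosin Myh4, lay above the array median on all 8 arrays. Their mean was 14.33 to 14.39 on the chow arrays and 14.33 to 14.37 on the 42-day arrays. The array medians ran from 7.65 to 7.70. The leading axis of a principal component analysis, with 45% of the variance, separated the groups, with the chow arrays between -29.5 and -6.68 and the 42-day arrays between 14.4 and 22. Signs of RNA quality differed between the groups as well. The control probe sets for the 3' and 5' ends of 4 transcripts differed by 0.99, 1.09, 1.05 and 1.14 on average on the chow arrays and by 0.90, 1.0, 0.82 and 0.84 on the 42-day arrays, where replicate 2 lay just above chow replicate 1. The pair for pyruvate carboxylase made the widest gap, 1.63 to 2.23 against 1.12 to 1.49, and Pcx, the gene that encodes this enzyme, was itself among the genes that fell. The pair for Gapdh differed by 0.11 to 0.16 on chow and by 0.04 to 0.07 after 42 days. With this difference as a covariate 0 probe sets passed limma's test, against 5306 with an unadjusted p under 0.05. The part of RNA quality in the gene results was not tested further.

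After 42 days 3646 probe sets, or 8.1%, passed the test, of which 2054 (4.56%) rose and 1592 (3.53%) fell. Among genes, 430 rose (2.36%) and 578 fell (3.18%), 5.54% together. Most changes were small. The median size of the log2 change was 0.301 among the genes past the test, and only 84 changed by more than 1.5-fold, 62 upward and 22 downward. The groups did not overlap for 942 of the 1008 genes past the test, against 947 genes (5.21%) higher and 1565 genes (8.6%) lower without overlap among all 18193. Leaving out 1 array moved the number of probe sets past the test to between 1780, without 42-day replicate 4, and 4267, without chow replicate 1. It was 1810 without chow replicate 3, 2216 without 42-day replicate 2 and 2384 without 42-day replicate 1.

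The largest rises and falls fell into 2 plain groups. All 12 of the largest rises were of transcripts typical of liver, led by albumin. Of the 12 largest falls 8 belonged to lipogenesis. Between these extremes lay a broad set of rises in fatty acid oxidation and in tendon and collagen genes. The chart of gene lists shows these groups against the share of all genes.

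**Figure D1:**
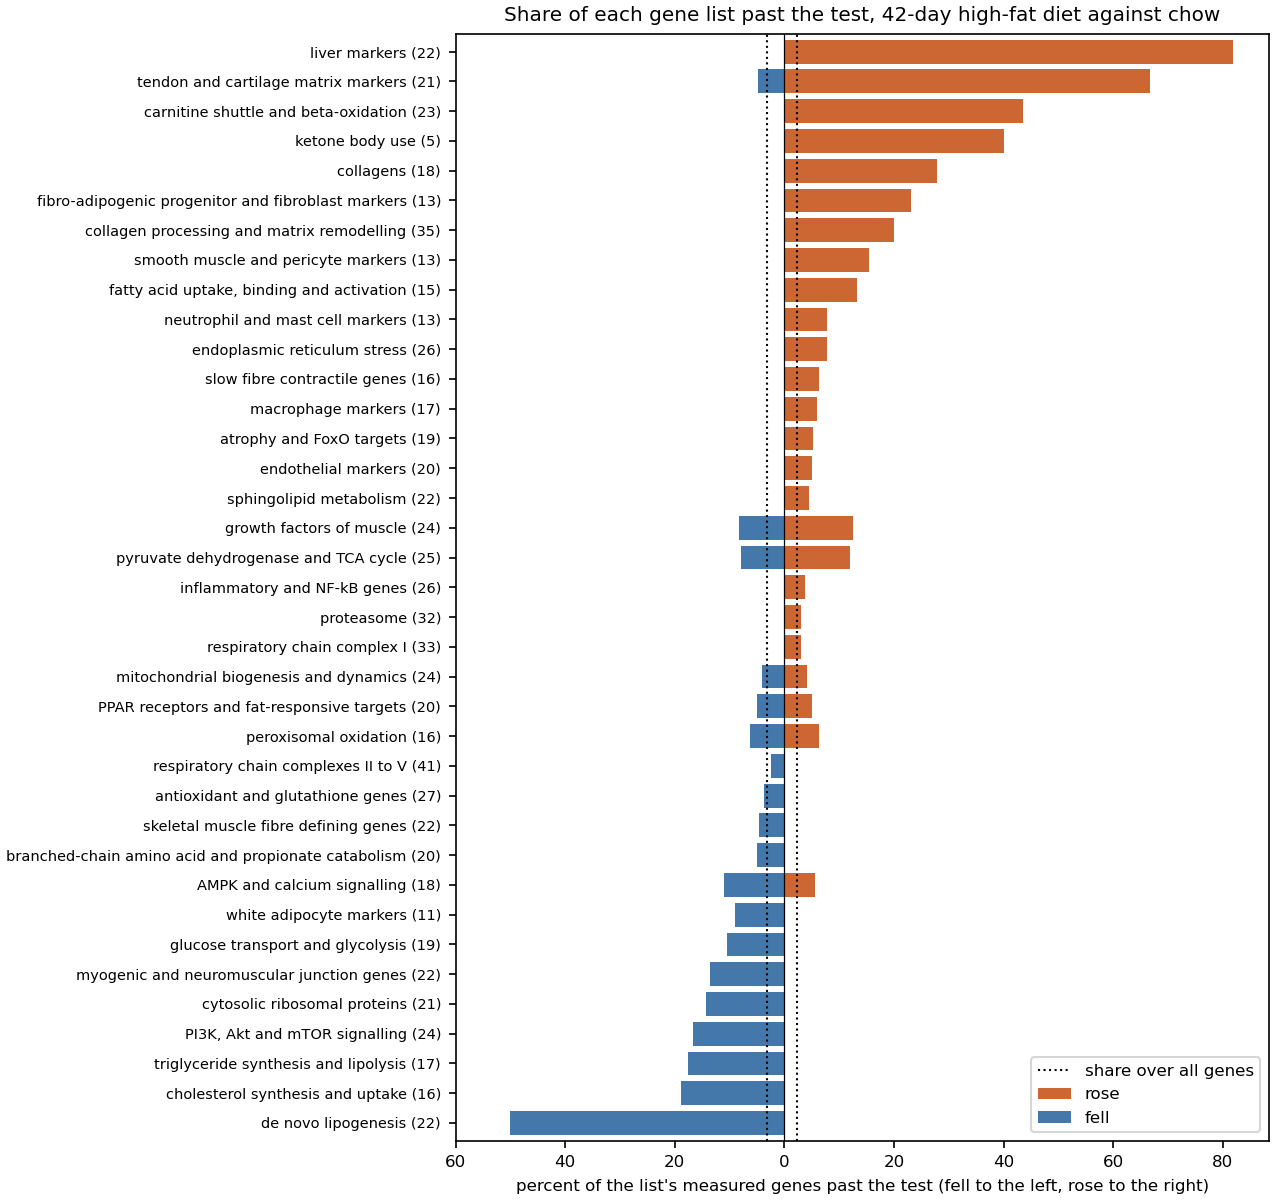
Bars give the percent of each list's measured genes (number in parentheses) that rose to the right and fell to the left after 42 days of high-fat diet against chow, and dotted lines mark the shares over all genes, 2.36% and 3.18%. Lists without a called gene are left out. Liver markers reach 81.8% rising, tendon and cartilage markers 66.7%, beta-oxidation 43.5%, and lipogenesis 50% falling.

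Fatty acid uptake and binding came first in the pathway and rose at its best-known steps. Fabp3, the fatty acid-binding protein of heart and skeletal muscle, was read at 13.66, 13.73, 13.62 and 13.53 on the chow arrays and at 14.24, 14.31, 14.21 and 14.30 on the 42-day arrays. The groups lay well apart, and the rise was 1.55-fold (log2 fold change 0.63 ± 0.059, SE, adjusted p = 0.000405). Cd36, the fatty acid translocase, was at 11.64, 11.89, 11.67 and 11.95 on chow. After 42 days it was at 12.21, 12.52, 12.50 and 12.54, with replicate 1 the lowest of its group but still above all chow arrays. It rose 1.57-fold (0.65 ± 0.092, adjusted p = 0.00203). Both calls held in all 8 fits that left out 1 array. A second probe set for Cd36 also rose (0.30 ± 0.080) and the dimmest, at 0.23, did not pass, while a second probe set for Fabp3 was dim and did not differ past the test (8.59 on chow, 8.61 after 42 days).

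Of 15 measured genes for uptake, binding and activation these 2 were the only ones past the test, 13.3% against 2.36% of all genes. The median of the list was 0.0615, against -0.0125 for all genes. Slc27a1, a fatty acid transport protein of muscle, had a log2 fold change of 0.21 that missed the threshold (adjusted p = 0.0807). Fabp5, a fatty acid-binding protein found in fat cells and macrophages, had -0.49 (adjusted p = 0.0817), and Vldlr, the receptor that takes up very low density lipoprotein, -0.23 (adjusted p = 0.0709).

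Genes of beta-oxidation rose together, while of the carnitine shuttle Cpt1a alone passed the test. Of 23 measured on the joint list 10 rose, or 43.5% against 2.36% of all genes, and 0 fell. A higher mean after 42 days was found for 21. The median change of the list was 0.168. The list mean was 11.86, 11.87, 11.96 and 11.81 on the chow arrays and 12.00, 12.08, 12.06 and 12.12 on the 42-day arrays, so every 42-day array lay above every chow array. With 1 array left out, 7 to 10 of the list's genes rose, the fewest without 42-day replicate 4. The muscle form of carnitine palmitoyltransferase, Cpt1b, had no probe set of its own and was not read.

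The steps can be followed in order. Cpt1a, the form of carnitine palmitoyltransferase typical of liver, was at 9.11, 9.19, 9.16 and 9.22 on chow and at 9.40, 9.40, 9.40 and 9.47 after 42 days, a rise of 1.19-fold (0.25 ± 0.052, adjusted p = 0.0146). The long-chain enzyme of the acyl-CoA dehydrogenase step, Acadl, was at 13.00, 13.06, 13.05 and 12.93 on chow and at 13.48, 13.60, 13.50 and 13.57 after 42 days. Its rise was 1.44-fold (0.52 ± 0.056, adjusted p = 0.000687), the smallest p of the list. The medium-chain enzyme Acadm rose by 0.28 ± 0.056 and the very-long-chain enzyme Acadvl, at 0.20 ± 0.067, missed the threshold (adjusted p = 0.0907).

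Later steps of the spiral moved alike. Hadha, a subunit of the trifunctional protein, rose by 0.31 ± 0.053 on the log2 scale, Echs1, the short-chain enoyl-CoA hydratase, by 0.31 ± 0.084, and Acaa2, the thiolase that ends each round, by 0.44 ± 0.058. Acaa2 was read by 3 probe sets, and all of them rose. Decr1 and Eci1, which prepare unsaturated fatty acids for oxidation, rose by 0.37 ± 0.071 and 0.26 ± 0.060. The call for Echs1 held in 2 of the 8 fits that left out 1 array, that for Eci1 in 4 and that for Cpt1a in 7, while those for the other 7 genes of the list held in all 8.

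The electrons of beta-oxidation pass through the electron transfer flavoprotein. Etfa, its alpha subunit, was at 12.82, 12.72, 12.73 and 12.66 on chow and at 13.05, 13.05, 13.03 and 13.10 after 42 days, a rise of 1.25-fold (0.33 ± 0.054, adjusted p = 0.00446). Etfdh, the dehydrogenase that hands these electrons to ubiquinone, was at 11.40, 11.35, 11.36 and 11.20 on chow and at 11.72, 11.81, 11.77 and 11.81 after 42 days. It rose 1.37-fold (0.45 ± 0.059, adjusted p = 0.00141). The arrays of the 2 groups did not overlap for either gene, nor for any of the 10 that rose. The same held for 942 of the 1008 genes past the test, so it adds little to the calls.

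**Figure D2:**
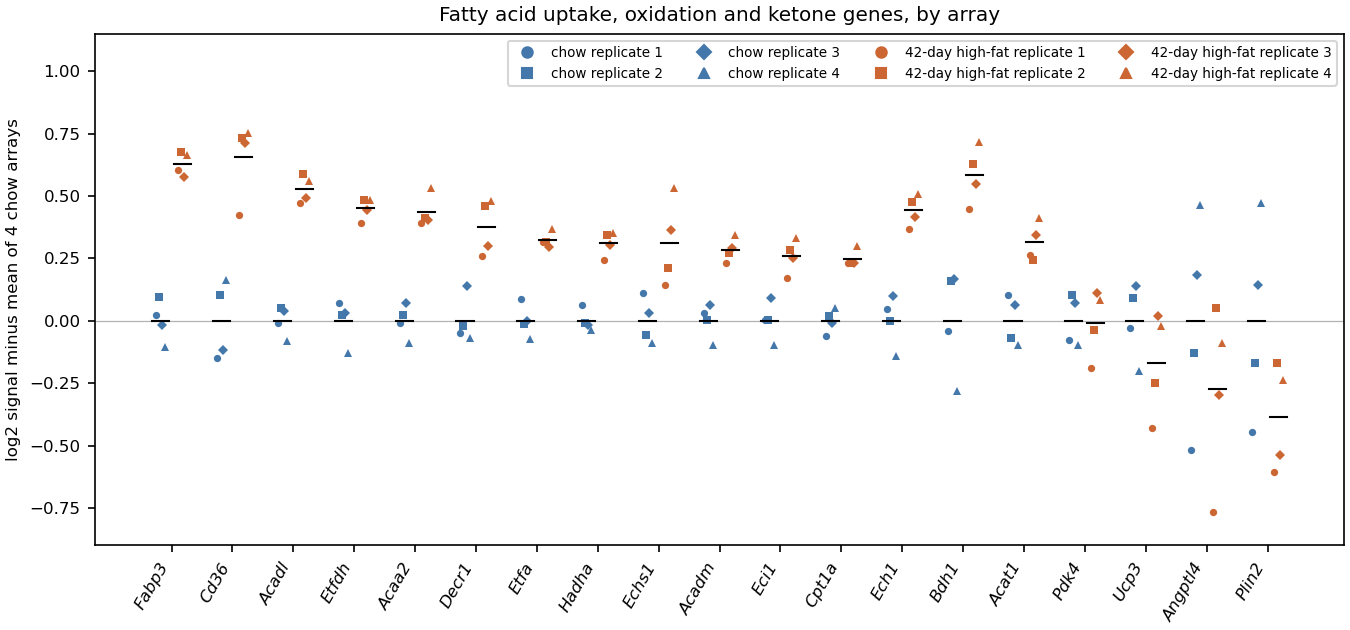
Each symbol is 1 array's log2 signal minus the mean of the 4 chow arrays, with chow in blue and the 42-day high-fat diet in orange; short bars are group means. From Fabp3 to Acat1 the 42-day arrays lie above the chow arrays, while for Pdk4, Ucp3, Angptl4 and Plin2 the groups overlap.

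Ketone bodies are another fuel that muscle burns. Of 5 measured genes for their use 2 rose, or 40% against 2.36% of all genes. Bdh1, which opens the pathway by oxidising 3-hydroxybutyrate, was at 10.04, 10.24, 10.25 and 9.80 on chow and at 10.53, 10.71, 10.63 and 10.80 after 42 days, a rise of 1.5-fold (0.59 ± 0.099, adjusted p = 0.00487). Acat1, the mitochondrial acetoacetyl-CoA thiolase that closes it, rose by 0.32 ± 0.065. Oxct1, the transferase between them, had a log2 fold change of -0.03. Among 16 genes of peroxisomal oxidation, Ech1, a dienoyl-CoA isomerase, rose (0.44 ± 0.065, adjusted p = 0.00239) and Ehhadh, the bifunctional enzyme, fell (-0.49 ± 0.12, adjusted p = 0.0310), and the median of that list was 0.0035. The rise and the fall were 6.25% of the peroxisomal list each, against 2.36% and 3.18% of all genes. The call for Ehhadh held in 3 of the 8 fits without 1 array.

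The RefSeq promoters of 2 rising genes are given because these genes moved together. They cover the 250 bases before the annotated start, in build GRCm38.p6, with capitals on the letters of a searched motif. Acadl lies on the minus strand at chr1:66863310-66863559, and Etfdh on the minus strand at chr3:79628768-79629017.
Acadl: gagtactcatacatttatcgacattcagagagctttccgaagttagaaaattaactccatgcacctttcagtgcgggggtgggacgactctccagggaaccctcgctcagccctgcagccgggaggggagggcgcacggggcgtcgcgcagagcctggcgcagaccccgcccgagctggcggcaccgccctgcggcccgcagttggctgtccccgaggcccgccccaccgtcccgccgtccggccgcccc
Etfdh: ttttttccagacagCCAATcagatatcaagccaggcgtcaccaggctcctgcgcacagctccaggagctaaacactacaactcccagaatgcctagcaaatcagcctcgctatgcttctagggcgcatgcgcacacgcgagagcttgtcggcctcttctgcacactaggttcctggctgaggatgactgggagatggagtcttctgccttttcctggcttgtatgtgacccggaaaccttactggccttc
The motifs searched on both strands were AGGTCA, the half-site of nuclear receptors, 2 such half-sites 1 base apart as bound by the peroxisome proliferator-activated receptors (PPARs), TCACNCCAC, the sterol element of the SREBP factors, CACGTG, the E-box, CCAAT and TGACGTCA. AGGTCA is part of the paired form. The Etfdh window held CCAAT once, from base -236 to base -232, and the Acadl window held none of the motifs. CCAAT stood in 34.5% of the 27025 promoters listed, in 34.1% of 340 promoters of genes that rose and in 36.7% of 460 promoters of genes that fell.

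The PPARs are receptors that respond to fatty acids, and the list made for them and for fat-responsive targets did not move as a whole. The genes of uptake and beta-oxidation that rose were counted in other lists, so this list does not cover every gene that may respond to PPARs. Of 20 measured genes 1 rose and 1 fell, 5% each against 2.36% and 3.18% of all genes, and the median change was -0.107. Pdk4, the pyruvate dehydrogenase kinase induced by fasting and fat, was at 14.09, 14.27, 14.24 and 14.07 on chow and at 13.98, 14.13, 14.28 and 14.25 after 42 days. Its difference was -0.01 ± 0.077, and the groups overlapped. Angptl4, a secreted inhibitor of lipoprotein lipase, was at 9.45 to 10.43 on chow and 9.20 to 10.02 after 42 days. Plin2, a coat protein of lipid droplets, was at 10.49 to 11.41 and at 10.33 to 10.77 (-0.39 ± 0.17, adjusted p = 0.188). The gene that rose was Acot1, a cytosolic acyl-CoA thioesterase (0.47 ± 0.11, adjusted p = 0.0269), and the one that fell was Plin3, another droplet protein (-0.29 ± 0.078, adjusted p = 0.0405). The first call held in 3 and the second in 1 of the 8 fits without 1 array.

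Ucp3, the uncoupling protein of muscle, gave 2 answers. Its brighter probe set was at 12.66, 12.78, 12.83 and 12.49 on chow and at 12.26, 12.44, 12.71 and 12.67 after 42 days, a difference of -0.17 ± 0.10 that did not pass (adjusted p = 0.354). A second probe set had a mean of 11.60 on chow and of 12.07 after 42 days and rose (0.47 ± 0.12, adjusted p = 0.0340). Which of them follows the protein-coding transcript was not tested.

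Lipogenesis held the largest falls. Of 22 measured genes 11 fell, or 50% against 3.18% of all genes, and 0 rose. The median change was -0.276, and 21 of the 22 had a lower mean after 42 days. In all 11 the groups did not overlap, as in 942 of the 1008 genes past the test. Fasn, the fatty acid synthase, was at 11, 11.55, 12.17 and 12.79 on the chow arrays and at 10.02, 9.86, 9.58 and 9.97 on the 42-day arrays. The chow arrays ranged widely, yet the lowest of them was above the highest 42-day array, and Fasn fell 4.05-fold (-2.02 ± 0.29, adjusted p = 0.00212).

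Transcripts for the supply and first use of acetyl-CoA fell. Slc25a1, the carrier that exports citrate from mitochondria, was at 9.24, 9.73, 10.08 and 10.77 on chow and at 8.73, 8.80, 8.43 and 8.80 after 42 days, a fall of 2.39-fold (-1.26 ± 0.24, adjusted p = 0.00925). Acly, the ATP citrate lyase, was at 9.76, 10.14, 10.69 and 11.06 on chow and at 9.26, 8.89, 9.06 and 9.36 after 42 days. It fell 2.41-fold (-1.27 ± 0.22, adjusted p = 0.006), and a second probe set fell by 0.78 on the log2 scale, while its 4 dimmer probe sets did not pass (-0.20 to -0.03). Acaca, the acetyl-CoA carboxylase that makes malonyl-CoA, fell 1.92-fold (-0.94 ± 0.19), from 10.12, 10.39, 10.76 and 11.24 to 9.54, 9.75, 9.51 and 9.95. A second, dim probe set for Acaca was at 6.95 and 7.07 and did not pass.

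Of the pentose phosphate pathway, which supplies NADPH, the transcripts of 3 enzymes fell. Tkt, the transketolase, was at 10.72, 11.39, 12.06 and 12.58 on chow and at 9.75, 10.14, 9.58 and 10.45 after 42 days, a fall of 3.27-fold (-1.71 ± 0.32, adjusted p = 0.00862). All 3 of its probe sets fell. Pgd, the phosphogluconate dehydrogenase, fell by 0.49 ± 0.12 on the log2 scale and Taldo1, the transaldolase, by 0.26 ± 0.067. For Scd1, the stearoyl-CoA desaturase, the chow arrays read 13.22, 13.48, 13.78 and 14.27 and the 42-day arrays 11.99, 12.90, 12.09 and 13.19. The 2 groups came close, and Scd1 fell 2.22-fold (-1.15 ± 0.27, adjusted p = 0.0239). Elovl6, the elongase that extends palmitate, fell 2.11-fold (-1.07 ± 0.22) and Thrsp, a lipogenic regulator also called Spot 14, 1.90-fold (-0.92 ± 0.22).

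The list also held transcription factors. Mlxipl, which encodes the carbohydrate-response factor ChREBP, fell by 0.30 ± 0.072 (adjusted p = 0.0274). Srebf1, which encodes the sterol-regulated factor SREBP1, was at 10.96, 10.78, 10.85 and 10.87 on chow and at 10.69, 10.90, 10.69 and 10.81 after 42 days. The groups overlapped and the difference was -0.09 ± 0.065 (adjusted p = 0.453). An array reads both transcripts of Srebf1 and cannot show whether its protein was cleaved. Aacs, which makes acetoacetyl-CoA for lipid synthesis, had -0.30 and missed the threshold (adjusted p = 0.0789).

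The spread of these genes followed single arrays. Chow replicate 4 was the highest chow array for 8 of the 11 falling genes and chow replicate 1 the lowest for 10. Without chow replicate 3 only 4 of the 11 passed, the fewest of the fits without 1 array. The calls for Fasn, Tkt, Acly and Slc25a1 held in all 8 of those fits, those for Acaca and Elovl6 in 7, and those for Scd1 and Thrsp in 4. Pgd, Mlxipl and Taldo1 kept theirs in 3, 2 and 2.

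Markers of fat cells varied across the same arrays. The mean of 11 white adipocyte markers was 10.07, 10.14, 10.25 and 10.90 on the chow arrays and 9.47, 10.31, 9.81 and 10.22 on the 42-day arrays, and 1 of the 11 fell. The mean of 10 brown adipocyte markers was 8.08, 8.38, 8.56 and 8.64 on chow and 8.07, 8.25, 8.04 and 8.45 after 42 days, and 0 of the 10 passed the test in either direction. These counts depended on the fit. With the replicate number as a block, 7 of the white and 2 of the brown markers fell. Adipoq, which encodes adiponectin, was at 11.59, 11.67, 11.82 and 12.91 on chow and at 10.36, 11.90, 10.68 and 11.68 after 42 days. Ucp1, the uncoupling protein of brown fat, was at 7.50, 8.72, 9.58 and 9.82 on chow and at 7.41, 7.73, 7.32 and 8.96 after 42 days. The groups overlapped for both, with adjusted p = 0.169 for Adipoq and 0.193 for Ucp1. Retn, Cidec and Cidea, further adipocyte genes, had -0.69, -0.98 and -1.27 and overlapping groups. Lep, the leptin gene, was at 7.95 to 8.37 on chow and 7.83 to 8.55 after 42 days.

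Chow replicate 4 held the highest mean of the white adipocyte markers and was the highest chow array for 8 of the 11 lipogenic genes that fell. With the adipocyte mean as a covariate 1665 probe sets passed the test in place of 3646, and 144 genes fell in place of 578. Of the 11 lipogenic genes 6 passed in that fit, and Elovl6, Thrsp, Mlxipl, Pgd and Taldo1 did not (adjusted p = 0.0619 to 0.173). None of the 3 falls of the triglyceride list passed in it. There Fasn kept a log2 fold change of -1.68 (adjusted p = 0.0109) and Acly one of -1.05 (adjusted p = 0.034). The part of fat cells in the falls was not tested further.

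**Figure D3:**
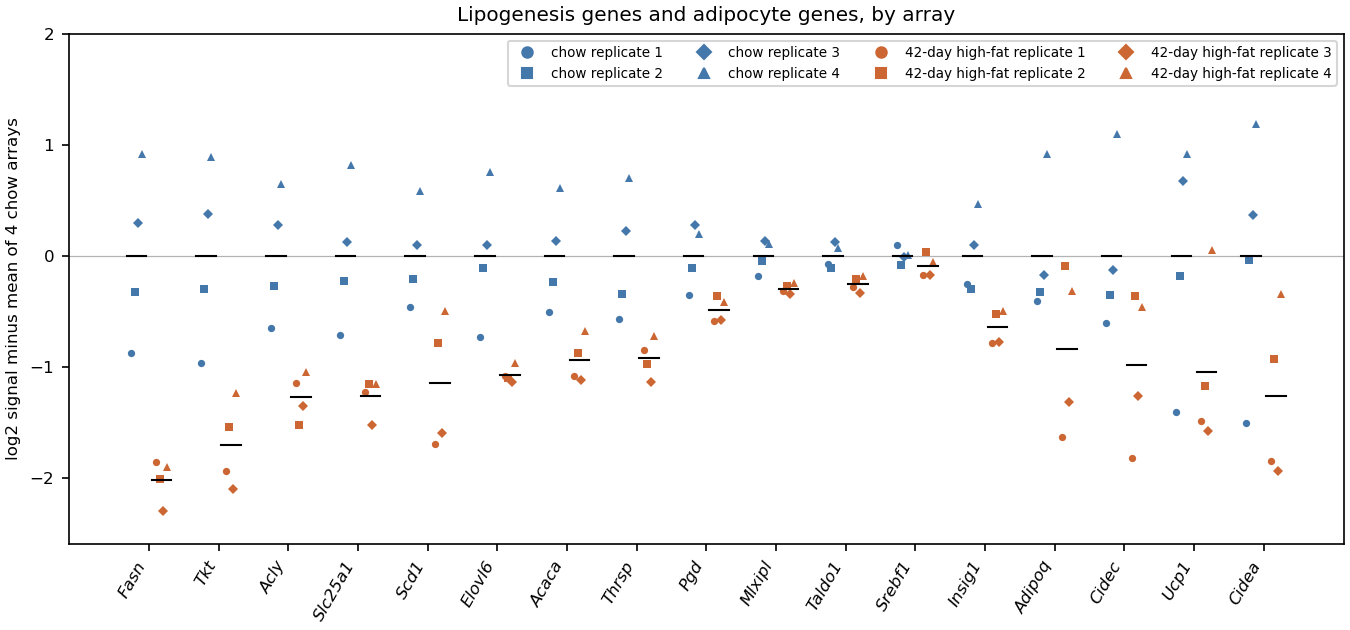
Symbols are single arrays, as log2 signal minus the mean of the 4 chow arrays (chow blue, 42-day high-fat diet orange), and short bars are group means. Fasn to Taldo1 lie lower on all 42-day arrays, Srebf1 overlaps, and the adipocyte genes Adipoq, Cidec, Ucp1 and Cidea at the right overlap and spread most.

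The promoters of 2 falling genes are shown in the same way for comparison. Fasn lies on the minus strand at chr11:120824548-120824797 and Acly on the minus strand at chr11:100528001-100528250.
Fasn: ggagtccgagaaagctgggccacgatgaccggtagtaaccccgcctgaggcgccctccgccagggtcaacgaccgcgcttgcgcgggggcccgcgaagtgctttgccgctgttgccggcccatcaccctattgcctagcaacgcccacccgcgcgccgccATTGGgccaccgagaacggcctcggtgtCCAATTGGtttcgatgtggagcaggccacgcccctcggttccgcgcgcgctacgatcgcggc
Acly: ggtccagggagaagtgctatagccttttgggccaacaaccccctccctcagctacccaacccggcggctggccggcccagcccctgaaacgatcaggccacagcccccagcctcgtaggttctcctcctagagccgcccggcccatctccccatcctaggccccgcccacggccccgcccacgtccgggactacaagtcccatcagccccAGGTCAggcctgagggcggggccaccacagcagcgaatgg
The Fasn window held CCAAT 3 times, from base -90 to -86 and -59 to -55 on the opposite strand and from -62 to -58 on the same strand, and the last 2 of these overlap by 2 bases. The Acly window held AGGTCA once, from base -40 to -35. CCAAT stood in 10 of 19 promoters of the lipogenesis list, in 7 of 19 of the beta-oxidation list and in 34.5% of all. It also stood in 10 of 19 of the liver list, in 11 of 19 of the PPAR list and in 3 of 13 of the tendon list. So its share in the lipogenesis list was not particular to falling genes. CACGTG stood in 11.3% of the promoters of genes that fell, in 4.41% of those of genes that rose, in 7.56% of the 14452 of measured genes and in 6.05% of all. These counts describe letters in 1 window per gene and are no measure of binding.

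The triglyceride and cholesterol lists held 3 falls each, or 17.6% and 18.8% of their measured genes against 3.18% of all, and 0 rises. Of 17 genes for triglyceride synthesis and lipolysis 3 fell: Gpat3, a glycerol-phosphate acyltransferase (-0.50 ± 0.12), G0s2, an inhibitor of the lipase ATGL (-0.46 ± 0.12), and Mogat1, a monoacylglycerol acyltransferase (-0.28 ± 0.074). Dgat1, which adds the last acyl chain, had -0.45 and Agpat2 -0.66, and neither passed (adjusted p = 0.0799 and 0.0691). The 3 calls were lost together without chow replicate 3, chow replicate 4, 42-day replicate 1 or 42-day replicate 3. Of 16 cholesterol genes 3 fell. Insig1, a sterol sensor, fell by 0.64 ± 0.15 on the log2 scale, Idi1, an isomerase of the mevalonate pathway, by 0.29 ± 0.054, and Hmgcs1, its synthase, by 0.23 ± 0.059. The call for Idi1 held in all 8 fits without 1 array, that for Insig1 in 5 and that for Hmgcs1 in 1. Of 22 genes of sphingolipid metabolism 1 rose (4.55% against 2.36% of all genes), the glucosylceramide synthase Ugcg (0.30 ± 0.067).

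Pyruvate dehydrogenase links glycolysis to the citric acid cycle, and the genes of 3 of its parts rose. Dlat, its acetyltransferase, was at 11.93, 11.97, 11.98 and 11.96 on chow and at 12.25, 12.23, 12.24 and 12.30 after 42 days. Both groups were tight, and Dlat rose 1.23-fold (0.30 ± 0.049, adjusted p = 0.00466). Dld, the lipoamide dehydrogenase, rose by 0.30 ± 0.060 and Pdhx, the binding protein, by 0.30 ± 0.063. Pdp2, a phosphatase that activates the complex, fell (-0.28 ± 0.062), and so did Pcx, the pyruvate carboxylase (-0.57 ± 0.13), whose groups overlapped. Among all 25 genes of this complex and the cycle 3 rose (12% against 2.36% of all genes) and 2 fell (8% against 3.18%). The median was 0.0572. The citric acid cycle enzyme Idh3a had 0.18 and missed the threshold (adjusted p = 0.0594). The calls for Dlat and Dld held in all 8 fits without 1 array, that for Pdhx in 7, that for Pdp2 in 6 and that for Pcx in 3.

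The respiratory chain stayed near the share of all genes, which was 2.36% rising and 3.18% falling. Of 33 genes of complex I 1 rose, Ndufb5 (0.19 ± 0.052, adjusted p = 0.0487), and its neighbour by p, Ndufs1, had 0.19 (adjusted p = 0.0514). Of 41 genes of complexes II to V 0 rose and 1 fell, Cox7c, read at 6.38 and 6.08 by a dim probe set. The medians of these lists were -0.002 and 0.0255. Ppargc1a, the coactivator PGC-1alpha of mitochondrial biogenesis, was at 10.65, 10.91, 10.64 and 10.52 on chow and at 10.34, 10.40, 10.56 and 10.48 after 42 days. It had -0.23 ± 0.083 and did not pass (adjusted p = 0.112). Of 24 genes for biogenesis and dynamics Gabpb1 rose (0.27 ± 0.067) and Tfb1m fell (-0.19 ± 0.053), with a median of -0.0713, and of 12 genes for coenzyme Q 0 passed. The calls for Cox7c, Gabpb1, Ndufb5 and Tfb1m held in 3, 2, 1 and 0 of the 8 fits without 1 array.

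Genes of glucose transport and glycolysis were mostly a little lower. Of 19 measured 17 had a lower mean after 42 days, with a median of -0.0423. That median was close to those of bright genes in general. With all genes split into 10 bins by signal, the brightest bins, 9 and 10, had medians of -0.0472 and -0.0355. The groups did not overlap for 7 that were lower and 1 that was higher, against 8.6% and 5.21% of all genes. Slc2a4, which encodes the insulin-responsive transporter GLUT4, was at 13.28, 13.29, 13.31 and 13.29 on chow and at 13.28, 13.29, 13.25 and 13.32 after 42 days. The difference of its brighter probe set was -0.01 ± 0.049. Its second probe set read 12.42 on chow and 12.94 after 42 days and rose (0.51 ± 0.079, adjusted p = 0.00302), so the 2 readings of this transcript disagree. Hk2, the hexokinase of muscle, was at 13.29, 13.30, 13.28 and 13.40 on chow and at 13.11, 13.21, 13.21 and 13.18 after 42 days. Its groups did not overlap, but the fall of 0.14 ± 0.054 did not pass (adjusted p = 0.141).

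In this list 2 genes fell past the test, or 10.5% against 3.18% of all genes, and 0 rose. Pfkfb3, which makes the activator fructose 2,6-bisphosphate, was at 10.33, 10.77, 10.47 and 10.57 on chow and at 9.45, 10.21, 9.57 and 10.15 after 42 days, a fall of 1.61-fold (-0.69 ± 0.16, adjusted p = 0.023). Slc2a3, another glucose transporter, fell by 0.42 ± 0.099 on the log2 scale. The call for Pfkfb3 held in 3 and that for Slc2a3 in 4 of the 8 fits without 1 array. Of 15 glycogen genes 0 passed.

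No gene of the insulin receptor and its adaptors passed among 15 measured. Insr, the receptor, had -0.12 ± 0.067, and its substrates Irs1 and Irs2 had -0.20 ± 0.073 and -0.22 ± 0.068 (adjusted p = 0.301, 0.118 and 0.0725). Irs1 was at 12.02 to 12.39 on chow and 11.97 to 12.06 after 42 days, and Irs2 at 8.90 to 9.11 and 8.67 to 8.93. Without chow replicate 3, which read lowest for Irs1 on chow, Irs1 gave an adjusted p of 0.0418, and without chow replicate 1 Irs2 gave 0.0442. Ptpn1, a phosphatase that acts on the receptor, had -0.24 (adjusted p = 0.0574).

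Downstream of the receptor 4 of 24 genes fell and 0 rose by the brightest probe set, 16.7% against 3.18%. The direction depended on the probe set read. By the second-brightest 5 genes of this list rose and 0 fell, and with a gene's probe sets averaged 1 rose and 0 fell. Rictor, the defining subunit of mTORC2, was at 8.74, 8.86, 8.82 and 8.72 on chow and at 8.51, 8.44, 8.51 and 8.57 after 42 days, and fell by 0.28 ± 0.057 (adjusted p = 0.0131). Eif4ebp1, the translation inhibitor that mTORC1 phosphorylates, fell by 0.35 ± 0.075. Deptor, an inhibitor of mTOR, fell by 0.36 ± 0.090, and Tsc1, a subunit of the complex that restrains mTORC1, by 0.19 ± 0.054. Of 5 probe sets for Rictor the other 4 were dim and did not pass (-0.18 to 0.15), and a second probe set for Tsc1 had 0.19 (adjusted p = 0.0768). These members both promote and restrain the pathway. The calls for Rictor and Eif4ebp1 held in all 8 fits without 1 array, those for Deptor and Tsc1 in 2 and 1, and Akt2, the insulin-responsive Akt of muscle, had -0.19 (adjusted p = 0.079). Of 18 genes of AMPK and calcium signalling 1 rose (5.56% against 2.36% of all genes) and 2 fell (11.1% against 3.18%). Prkab1, a regulatory subunit of AMPK, rose (0.26 ± 0.054), while Camkk2, a kinase that activates AMPK, and Camk2a fell (-0.27 ± 0.059 and -0.21 ± 0.055).

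Several of these genes were read differently by their other probe sets. On the 9010 genes with more than 1 probe set, the brightest rose for 232 and fell for 408, while the second-brightest rose for 735 and fell for 377. Both rose for 47 and both fell for 43, and for 22 the brightest fell while the second rose. The mean difference between the brightest and second-brightest probe set was 1.257, 1.273, 1.290 and 1.283 on the chow arrays and 1.231, 1.240, 1.234 and 1.229 on the 42-day arrays. Every chow array lay above every 42-day array in this, as in the average of the 3' against 5' controls apart from 42-day replicate 2. Whether these measures are linked was not tested.

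**Figure D4:**
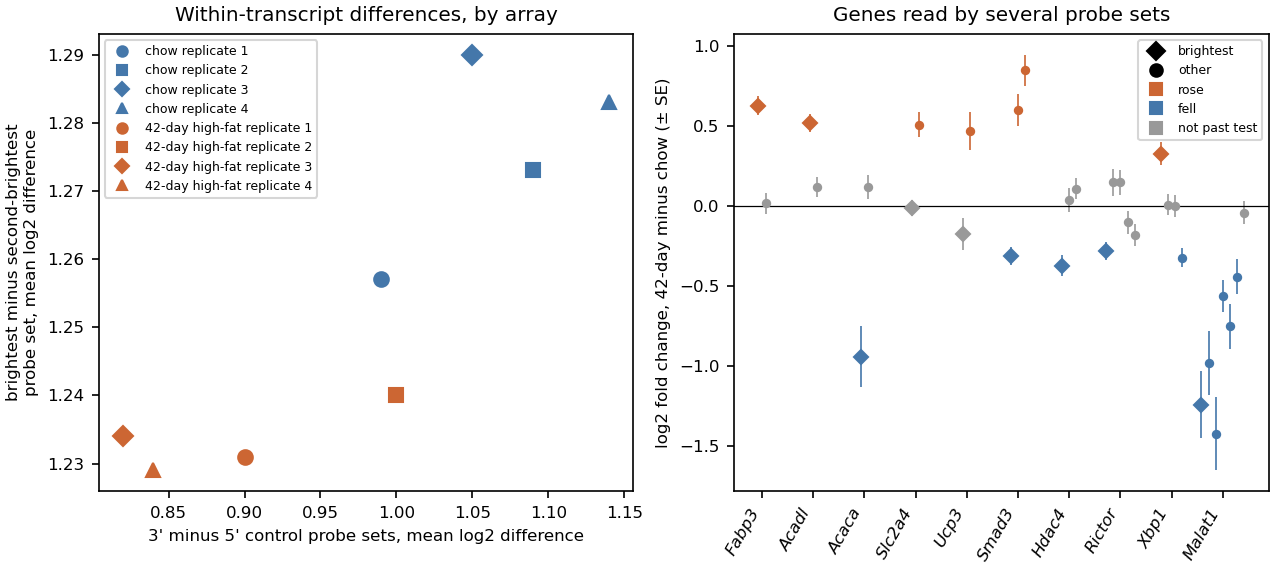
Left, each array's mean difference between the brightest and second-brightest probe set of 9010 genes against the mean 3' minus 5' difference of 4 control transcripts, both in log2 units. Right, log2 fold change ± SE of every probe set of 10 genes, with diamonds for the brightest: for Slc2a4, Ucp3 and Smad3 the other probe sets rose while the brightest did not, and 6 of 7 fell for Malat1.

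Matrix genes rose, most of all those of tendon. Of 21 genes typical of tendon and cartilage 14 rose, or 66.7% against 2.36% of all genes, and the median change was 0.407. The list mean was 9.43, 9.58, 9.45 and 9.59 on chow and 10.04, 9.84, 9.92 and 10.03 after 42 days. Tnmd, tenomodulin, a membrane protein of tendon cells, was at 8.86, 9.19, 8.84 and 8.91 on chow and at 10.29, 9.68, 9.88 and 10.31 after 42 days. It rose 2.13-fold (1.09 ± 0.13, adjusted p = 0.00109). Fmod, fibromodulin, a proteoglycan that binds collagen fibrils, was at 11.23, 11.64, 11.25 and 11.70 on chow and at 12.54, 12.17, 12.46 and 12.58 after 42 days. All 6 of its probe sets rose, the brightest 1.98-fold (0.98 ± 0.12, adjusted p = 0.00109).

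The other tendon genes covered several kinds of matrix protein. Prg4, the lubricin of sliding surfaces, was at 9.11, 9.39, 9.33 and 9.21 on chow and at 10, 10.04, 9.97 and 10.11 after 42 days, a rise of 1.70-fold with the smallest p of the list (0.77 ± 0.069, adjusted p = 0.000367). Thbs4, a thrombospondin of tendon and muscle attachment, rose by 0.82 ± 0.093, and Comp, the cartilage oligomeric matrix protein, by 0.55 ± 0.084. Cilp, of cartilage, rose by 0.66 ± 0.097, the small proteoglycans Lum and Kera by 0.70 ± 0.13 and 0.62 ± 0.12, and Chad by 0.61 ± 0.13. Tnc, tenascin C, rose by 0.41 ± 0.073, and Thbs2, Bgn and Cilp2 by 0.28 to 0.37. Clu, the chaperone clusterin, fell (-0.39 ± 0.11), with groups that overlapped. With 1 array left out 11 to 15 of the list rose, the fewest without chow replicate 3 or 42-day replicate 4.

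Collagens followed. All 18 measured chains had a higher mean after 42 days, and 5 rose, or 27.8% against 2.36% of all genes. Col1a1 was at 10.71, 11.26, 10.68 and 11.32 on chow and at 11.83, 11.67, 11.68 and 11.66 after 42 days, a rise of 1.64-fold (0.72 ± 0.13, adjusted p = 0.00855), though its second probe set had 0.14 ± 0.13. Col1a2, the other chain of type I collagen, rose by 0.61 ± 0.11. Col5a2, Col12a1 and Col11a1, which help to shape fibrils, rose by 0.38 ± 0.071, 0.35 ± 0.066 and 0.27 ± 0.061. The other probe set of Col5a2 had 0.02 and the 3 others of Col12a1 -0.08 to 0.13, and none of these passed. The other probe set of Col11a1 rose (0.79), as did 1 of the 2 others of Col1a2 (0.56). The call for Col11a1 held in 5 of the 8 fits without 1 array, and those for the other collagens that rose in all 8. Col3a1, the type III chain, was at 12.72 to 13.23 on chow and 13.10 to 13.35 after 42 days and did not pass (0.29 ± 0.096, adjusted p = 0.0915). Without chow replicate 4, the chow array with the highest collagen mean (10.26, against 9.96 to 10.16 on the others and 10.30 to 10.39 on the 42-day arrays), 8 of the 18 rose.

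Enzymes and partners of the matrix added 7 rises among 35 genes, or 20% against 2.36% of all genes, with a median of 0.151. Lox, the lysyl oxidase that crosslinks collagen, was at 9.28, 9.54, 9.32 and 9.55 on chow and at 9.92, 9.87, 9.87 and 10.11 after 42 days (0.52 ± 0.081, adjusted p = 0.00329). Its relative Loxl1 rose by 0.29 ± 0.059. Mmp2, a gelatinase, rose by 0.43 ± 0.085, Ccn2, the connective tissue growth factor, by 0.45 ± 0.084, and Fn1, fibronectin, by 0.36 ± 0.095. The call for Fn1 held in 2 of the 8 fits without 1 array, and its other probe set had -0.22 and did not pass. The calls for Lox, Loxl1, Mmp2 and Ccn2 held in all 8. Without chow replicate 4 the number rising was 12, and without chow replicate 3 or 42-day replicate 4 it was 4. Among 13 markers of fibro-adipogenic progenitors and fibroblasts 3 rose, Fbln1, Lum and Mfap5, or 23.1% against 2.36% of all genes. The calls for Fbln1 and Lum held in all 8 fits without 1 array and that for Mfap5 in 3. The mean of the 13 markers was 10.17 to 10.51 on chow and 10.52 to 10.66 after 42 days. Whether the 42-day samples held more tendon or connective tissue was not tested.

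Transcripts typical of liver rose most of all. Of 22 measured 18 rose (81.8%), with a median of 1.01. Alb, albumin, was at 10.03, 9.89, 9.15 and 9.65 on the chow arrays and at 11.91, 11.79, 11.17 and 12.61 on the 42-day arrays. The groups were far apart, and Alb rose 4.56-fold (2.19 ± 0.25, adjusted p = 0.000863), the largest rise of any named gene. Apoa1, the main protein of high density lipoprotein, was at 8.80, 8.38, 8.13 and 8.38 on chow and at 10.36, 10.15, 9.32 and 11.10 after 42 days. It rose 3.51-fold (1.81 ± 0.28), and all 4 of its probe sets rose. Ttr, the thyroid hormone carrier transthyretin, was at 8.90, 8.82, 8.38 and 8.65 on chow and at 10.63, 10.42, 9.64 and 11.28 after 42 days (1.80 ± 0.26).

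The rest of this group were secreted proteins and enzymes of hepatocytes. The protease inhibitors Serpina1b and Serpina1c rose 3.8-fold and 3.62-fold, the liver fatty acid-binding protein Fabp1 3.62-fold, and the 3 fibrinogen chains Fga, Fgg and Fgb 2.78-fold, 2.43-fold and 2.01-fold. Mug1, a protease-binding plasma protein, rose 2.71-fold, Bhmt, a methyltransferase of betaine, 2.61-fold, Mup3, a major urinary protein, 2.32-fold, and Apoa2 2.30-fold. Cps1, the urea cycle's carbamoyl-phosphate synthetase, rose 2.03-fold, from 6.84, 6.97, 6.60 and 7.02 to 8.15, 7.78, 7.44 and 8.13. Ahsg, fetuin A, rose 2.01-fold and Hpx, hemopexin, 2.13-fold with overlapping groups. Serpina1b, Apoa1, Ttr, Mup3, Apoa2 and Ahsg have probe sets whose suffix warns that they may match more than 1 transcript.

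These transcripts shared a pattern over arrays. The mean of the 22 liver markers was 8.24, 8.18, 7.94 and 8.15 on the chow arrays and 9.17, 9.01, 8.55 and 9.57 on the 42-day arrays. 42-day replicate 4 was highest in its group for 17 of the 18 rising genes, and 42-day replicate 3 was lowest for all 18. Of the 22 markers 11 lay above the array median on all chow arrays and 16 on all 42-day arrays. The markers that did not pass were Hnf4a, the factor that sets hepatocyte identity (9.01 on chow, 9.18 after 42 days), G6pc, the glucose-6-phosphatase (7.19 and 7.31), Tdo2, a tryptophan dioxygenase (0.40 ± 0.13, adjusted p = 0.0827), and Cyp2e1, a cytochrome that fat tissue also makes (-0.51 ± 0.27). With the liver mean as a covariate 0 probe sets passed limma's test, against 1781 with an unadjusted p under 0.05, and the liver mean could not be told apart from diet in these 8 arrays. Where these transcripts were made was not tested.

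**Figure D5:**
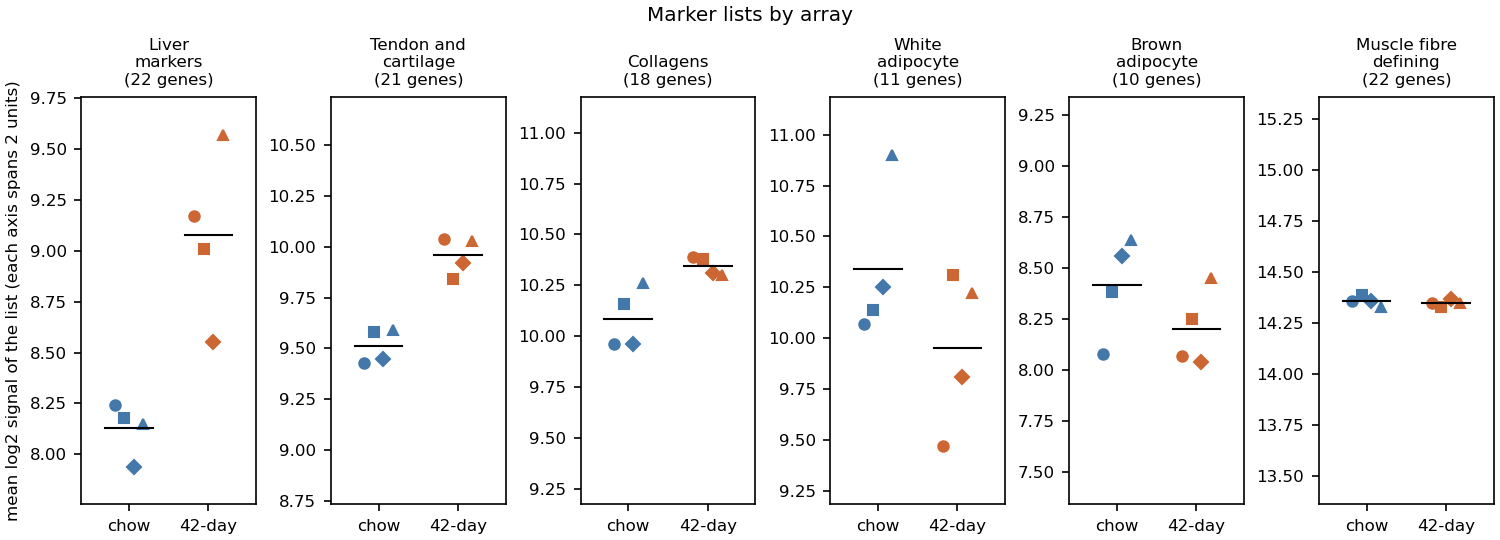
Each symbol is the mean log2 signal of a list on 1 array (circle, square, diamond and triangle for replicates 1 to 4; chow blue, 42-day orange), bars are group means, and every axis spans 2 log2 units. Liver, tendon and collagen means are higher on all 42-day arrays, the adipocyte means overlap, and the fibre-defining genes stay between 14.33 and 14.39.

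Slow fibre genes were higher by small amounts. All 16 slow fibre genes had a higher mean after 42 days, with a median of 0.266, but only Lmcd1, a LIM protein of muscle, rose past the test (12.23, 12.25, 12.00 and 12.01 on chow, 12.34, 12.55, 12.76 and 12.74 after 42 days; 0.48 ± 0.096). Myh7, the slow myosin heavy chain, was at 11.83, 11.78, 12.33 and 11.63 on chow and at 12.15, 12.05, 12.13 and 11.85 after 42 days, and its groups overlapped. Tnni1, slow troponin I, had 0.44 ± 0.14 (adjusted p = 0.0734), Csrp3, a muscle LIM protein, 0.43 ± 0.15, and Atp2a2, the slow calcium pump, 0.33 ± 0.10 (adjusted p = 0.0654). Of 6 probe sets for Atp2a2 3 others rose. The mean of the list was 11.50, 11.53, 11.76 and 11.22 on chow and 11.74 to 11.82 after 42 days, and without chow replicate 3 the number rising was 7.

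Of 17 fast fibre genes 0 passed, and their changes ran from -0.05 to 0.10. These were read by probe sets with group means of 14.54 to 15.43, near the top of the range of the array. Of the 6 genes with other probe sets, 2 had one that rose and 2 had one that fell, with changes from -0.52 to 0.53. Myh4, the fastest myosin, was at 15.20 to 15.26 on chow and at 15.22 to 15.29 after 42 days, while a second probe set for it, at 14.04 on chow, rose (0.47 ± 0.070). Mybpc1, the slow myosin-binding protein C, was chosen after its values were seen. Its brightest probe set had 0.14 ± 0.058 and did not pass, and its other 2 rose by 0.74 ± 0.059 and 1.03 ± 0.078, both with adjusted p = 0.000282.

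Some growth and innervation genes passed the test. Of 24 growth factors and their partners 3 rose (12.5% against 2.36% of all genes) and 2 fell (8.33% against 3.18%). Igfbp6, Igfbp3 and Fstl1, secreted binding proteins, rose by 0.31 ± 0.069, 0.30 ± 0.078 and 0.23 ± 0.053, and none of the 3 passed without chow replicate 3 or 42-day replicate 4. Zbed6, a repressor of Igf2, was at 8.63, 8.70, 9 and 9.08 on chow and at 8.37, 8.43, 8.37 and 8.03 after 42 days (-0.55 ± 0.11, adjusted p = 0.0119), and its second probe set fell too. Smad3, which carries signals of myostatin and TGF-beta, fell by its brightest probe set (-0.31 ± 0.055) and rose by the other 2 (0.60 ± 0.10 and 0.85 ± 0.099). Of 22 myogenic and neuromuscular junction genes 3 fell: Hdac4, a deacetylase that answers to nerve activity (-0.37 ± 0.065), Myog, myogenin (-0.34 ± 0.089), and Chrne, the adult subunit of the acetylcholine receptor (-0.25 ± 0.066). The 3 falls were 13.6% of this list, against 3.18% of all genes. Both other probe sets of Hdac4 did not pass (0.04 and 0.11). The call for Hdac4 held in all 8 fits without 1 array, that for Myog in 3 and that for Chrne in 2.

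Inflammatory, heat shock and clock genes gave few or 0 calls by their brightest probe sets. Of 26 inflammatory and NF-kB genes 1 rose (3.85% against 2.36% of all genes), the endotoxin receptor Tlr4 (0.28 ± 0.064). Of 17 macrophage markers 1 rose (5.88%), the lysozyme Lyz2 (0.35 ± 0.094). Cd68 and Mrc1, other macrophage markers, had 0.22 and 0.32 (adjusted p = 0.0672 and 0.1). The call for Tlr4 held in 3 and that for Lyz2 in 3 of the 8 fits without 1 array. Interferon (25 genes), clock (20), immediate early (29), heat shock (18), lymphocyte (15) and satellite cell (10) lists had 0 calls in either direction. Other probe sets gave some. Of 13 clock genes with others 3 had one that rose. Of 13 such heat shock genes 3 had one that rose and 1 had one that fell. Of 15 such immediate early genes 2 had one that rose and 2 had one that fell. Of 5 such satellite cell genes 1 had one that fell. Rora, an activator of the clock, came nearest with -0.28 (adjusted p = 0.0553). Without 1 array these 6 lists gave at most 3 calls in a direction, the most in the immediate early list without 42-day replicate 2.

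A few single genes of other groups passed. Of 26 genes of the endoplasmic reticulum stress list 2 rose, or 7.69% against 2.36% of all genes. Xbp1, a factor of the unfolded protein response, rose by its brightest probe set (0.33 ± 0.070) and fell by another (-0.32 ± 0.058). Pdia3, a disulfide isomerase, rose (0.48 ± 0.11). Ctsl, a lysosomal protease raised in atrophy, rose by 0.21 ± 0.056, the only 1 of 19 atrophy genes. Csad, an enzyme of taurine synthesis, fell (-0.48 ± 0.13), and Cdo1, which feeds it, had -0.94 ± 0.28 with overlapping groups (adjusted p = 0.0579). Mmut, the methylmalonyl-CoA mutase, was the only fall among 20 genes of branched-chain amino acid and propionate catabolism (-0.24 ± 0.057). Of 21 ribosomal proteins Rps9, Rpl37 and Rps6 fell, by 0.31, 0.24 and 0.28 on the log2 scale, 14.3% against 3.18% of all genes. The probe sets of Rps9 and Rpl37 may match more than 1 transcript. Other probe sets of Rps9 (-0.12 and 0) and of Rps6 (-0.03) did not pass. Of 32 proteasome genes Psma1 rose (0.22 ± 0.056). The calls for Rps9, Rpl37 and Rps6 held in 5, 3 and 2 of the 8 fits without 1 array. Those for Csad and Mmut held in 3 each, and those for Ctsl and Psma1 in 2 each.

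Vessel markers gave few calls. Pecam1, the endothelial adhesion molecule, was at 8.99, 9.12, 8.64 and 8.94 on chow and at 9.25, 9.37, 9.33 and 9.47 after 42 days (0.43 ± 0.092, adjusted p = 0.0153), the only 1 of 20 endothelial markers. Of 13 smooth muscle and pericyte markers Myl9 and Myh11, a light and a heavy chain of smooth muscle myosin, rose (0.42 ± 0.078 and 0.32 ± 0.071). The shares that rose were 5% of the endothelial and 15.4% of the smooth muscle list, against 2.36% of all genes. The means of the endothelial list, 9.36 to 9.56 on chow and 9.50 to 9.59 after 42 days, overlapped.

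Among the largest falls outside lipogenesis were 4 more genes. Malat1, a long noncoding RNA of the nucleus, was at 11.43, 12.18, 12.28 and 12.54 on chow and at 11.05, 10.93, 11.11 and 10.37 after 42 days. It fell 2.36-fold (-1.24 ± 0.21, adjusted p = 0.00541), and 6 of its 7 probe sets fell. Rgs2, a regulator of G-protein signalling, was at 7.82, 8.82, 9.07 and 9.39 on chow and at 7.28, 8.12, 7.64 and 7.83 after 42 days (-1.06 ± 0.28, adjusted p = 0.037), and chow replicate 1 lay among the 42-day arrays. Slc36a2, an amino acid transporter made in brown and white fat, fell 1.93-fold (-0.95 ± 0.21), and Aldh1a7, an aldehyde dehydrogenase, 1.84-fold (-0.88 ± 0.24). The call for Malat1 held in all 8 fits without 1 array, that for Slc36a2 in 5 and those for Rgs2 and Aldh1a7 in 2 each. Of the 123 genes past the test that are named here, 62 kept their call in all 8 such fits.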

How the data were processed

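RNA of skeletal muscle was labelled with biotin and hybridised to Affymetrix arrays, per the labels' protocols. The deposited values are log2 signals per probe set made with RMA, per the submitters' processing notes, and were not normalized again. Control probe sets (61) were left out, and 45037 were tested with limma 3.58.1 in R 4.3.3 on the 8 arrays, with group means, moderated variances and Benjamini-Hochberg adjustment over all of them. An adjusted p under 0.05 was a call. Errors are standard errors of the difference. Of the probe sets 34945 carried 1 gene symbol, 932 several and 9160 none. Each of the 18193 genes was read by its probe set of highest mean over the 8 arrays.

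Genes in 50 lists (952 of 1028 measured) were described. The genes named were the 12 largest rises and falls, up to 8 members of a list past the test and up to 3 not past it by smallest p, and a panel. Not all of these are printed. Members and lists were chosen with earlier results of these data known. Promoters came from RefSeq (GRCm38.p6). Scripts were tested on simulated data. Alternatives covered the arrays in the fit, a replicate block, scaling, dim and ambiguous probe sets, the prior, array weights, the probe set read, the threshold, 3 covariates and leaving out each array.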

Additional observations from a re-analysis of the deposited data

Results flagged for a closer look

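In 22 of the 434 groups of 4 arrays looked at, 1 array stood far from the other 3, by a gap to range ratio above Dixon's critical value for 95%. Chance gives this in about 1 in 20 groups. Among genes on the chow arrays the ratio of gap to range passed this for Hk2 in replicate 4 (0.835), Adipoq in replicate 4 (0.83), Tsc1 in replicate 3 (0.876), Camk2a in replicate 4 (0.891), Col5a2 in replicate 4 (0.842), Thbs4 in replicate 2 (0.945), Ugcg in replicate 3 (0.842), Cyp2e1 in replicate 4 (0.945), Chad in replicate 1 (0.927) and G6pc in replicate 4 (0.832). On the 42-day arrays it did so for Cd36 in replicate 1 (0.877), Col1a1 in replicate 1 (0.874), Cpt1a in replicate 4 (0.903), Zbed6 in replicate 4 (0.853), Myog in replicate 3 (0.842) and Ctsl in replicate 4 (0.849). Cd36 was low on that array, at 12.21 against 12.50 to 12.54, and the mean of the uptake list was low there too (11.16 against 11.29 to 11.31, a ratio of 0.888). Adipoq and Cyp2e1 were both high on chow replicate 4, at 12.91 and 13.54 against at most 11.82 and 12.48.

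The mean of 25 genes of the interferon response and antigen presentation was high on chow replicate 4 (9.32 against 8.84 to 8.89, a ratio of 0.887) and low on 42-day replicate 3 (8.87 against 8.92 to 8.92, a ratio of 0.931). Coenzyme Q genes had their highest mean on 42-day replicate 4 (11.14 against 11.06 to 11.07, a ratio of 0.851). Fast fibre genes did so on chow replicate 2 (15.08 against 15.06 to 15.06, a ratio of 0.858), and satellite cell markers were lowest on chow replicate 1 (8.23 against 8.34 to 8.35, a ratio of 0.916).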

How the results depend on the processing

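The counts moved with several choices, while the direction of most named genes did not. The probe sets past the test were 3953 with the 12 arrays of the series in the fit, 3774 after quantile normalization, 3656 after cyclic loess, 3438 after median centring and 4221 with a trended and robust prior. At an adjusted p under 0.1 there were 5883, with 2883 falling, and 741 rising and 1103 falling genes, 189 of them in the lists where the threshold of 0.05 gave 125. With 1 probe set per gene 769 genes passed (347 rose, 422 fell), and with a gene's probe sets averaged 794 (508 rose, 286 fell). Without probe sets whose names mark an ambiguous match 2196 passed (1267 rose, 929 fell), with 384 falling genes. The adipocyte covariate left 1665 (1196 rose, 469 fell), with 235 rising and 144 falling genes and 77 in the lists. The liver covariate and the 3' to 5' covariate left 0 past limma's test in every count, with 1781 and 5306 probe sets at an unadjusted p under 0.05. The liver mean lies apart between the groups and cannot be told apart from diet, while the 3' to 5' difference overlaps by 1 array of each group. The 3' to 5' covariate and the second-brightest probe set were chosen after seeing the data. By the second-brightest probe set 5 genes of beta-oxidation, 3 of tendon and 4 of liver rose, and 4 of lipogenesis fell, fewer genes having one.

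Without 1 array the probe sets past the test numbered 1780 to 4267, those that rose 1160 to 2145 and those that fell 558 to 2122. The genes that rose numbered 189 to 429, those that fell 186 to 752 and those in the lists 77 to 145. The number that fell changed by over 1.5 times without chow replicate 3 (558), chow replicate 4 (866) or 42-day replicate 1 (813), 2 (691), 3 (989) or 4 (620). The number that rose did so without chow replicate 3 (1252) or 42-day replicate 4.

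Replicate numbers went with part of the spread between arrays, and whether they mark pairs is not given. On the second axis of the principal component analysis, with 13.1% of the variance, replicates 1 and 2 of both groups lay between 6.47 and 12.8. Replicates 3 and 4 of both groups lay between -14.6 and -5.48. The correlations of same-numbered deviations were 0.111, 0.0993, 0.0695 and -0.00123, and for 4 of the 8 arrays the best partner bore the same number. With the replicate block 3538 probe sets passed (1999 rose, 1539 fell), and 83.2% of the original calls were among them. With this block 7 white adipocyte markers fell in place of 1 and 2 brown ones in place of 0, and Adipoq, Retn, Cidec, Cidea and Ucp1 passed (adjusted p = 0.0172 to 0.0424), while 10 lipogenic genes fell in place of 11.

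Some values changed sign, and the cause was not tested. With quantile normalization the value was 0.01 for Slc2a4 and -0.01 for Myh4. With median centring the value was 0 for Myh4. With cyclic loess the value was 0.01 for Pdk4 and 0.02 for Slc2a4. With array weights the value was 0.01 for Pdk4. With probe sets averaged by gene the value was 0.15 for Ucp3, 0.25 for Slc2a4, 0.01 for Insr, 0.08 for Camk2a, 0.38 for Smad3 and 0 for Rora. With probe sets of ambiguous match left out the value was 0.03 for Angptl4, 0.1 for Slc2a3, -0.32 for Xbp1, -0.14 for Ctsl, 0 for Rps9 and -0.06 for Hnf4a. With the adipocyte covariate the value was 0.09 for Angptl4 and 0 for Slc2a4. With the liver covariate the value was -0.18 for Fga, -0.19 for Fgg, 0.08 for Pdk4, -0.01 for Mfap5, -0.37 for Hpx, -0.16 for Tdo2 and 0.03 for Oxct1. With the 3' to 5' covariate the value was 0.27 for Angptl4, 0.13 for Plin2, 0 for Slc2a4, 0.18 for Adipoq, 0 for Myh4, 0.09 for Retn, 0.05 for Cidec, 0.09 for Cidea, 0.28 for Cyp2e1 and 0.04 for Clu. With the second-brightest probe set the value was 0.12 for Acaca, 0.47 for Ucp3, 0.03 for Angptl4, 0.51 for Slc2a4, 0.06 for Insr, 0.1 for Ppargc1a, -0.14 for Gabpb1, 0.1 for Pfkfb3, 0.15 for Rictor, 0.19 for Tsc1, 0.6 for Smad3, 0.04 for Hdac4, -0.22 for Fn1, -0.14 for Ctsl, 0.04 for Mmut, -0.16 for Psma1, -0.06 for Hnf4a, -0.13 for Slc27a1, 0.22 for Akt2 and 0.02 for Aacs. Without 1 array the value ran from -0.05 to 0.05 for Pdk4, from -0.01 to 0.01 for Myh4, from -0.01 to 0.23 for Lep, from -0.07 to 0 for Oxct1 and from -0.02 to 0 for Slc2a4. The number of arrays, 4 a group, limits the precision of every value.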
